A study of Mus musculus with 12 samples.

Results

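Type 2 and growth factor cytokine genes were examined in cultured mouse basophils. The set held 8 genes chosen by symbol, namely Il4, Il13, Il5, Il9, Il3, Areg, Csf1 and Csf2, out of 31301 gene symbols in the count table. A row was found for 7 of them, and Il9 was not analysed here. Of these 7 genes, 5 had at least 1 read count in some library and 3 (Il4, Il13 and Csf1) passed the filter on low counts and were tested among 10861 genes. Il5 and Il3 were below detection in every library, and Areg and Csf2 had at most 3 counts in any library.

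IL-4 switches B cells to IgE, and IL-4 and IL-13 drive mucus production and alternative macrophage activation. Basophils are known as an early source of IL-4. IL-5 and IL-9 support eosinophils and mast cells, IL-3 and GM-CSF (the product of Csf2) are growth factors of myeloid progenitors, M-CSF (the product of Csf1) sustains monocytes and macrophages, and amphiregulin (the product of Areg) is an EGF receptor ligand linked to tissue repair. The genes of IL-4, IL-13, IL-5, GM-CSF and IL-3 lie close together on 1 chromosome, where GATA, STAT and NFAT factors are known to act on the type 2 genes.

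The cells were sequenced after bone marrow from C57BL/6J wild-type animals had been cultured for 7 days with recombinant IL-3 at 0.3 ng/mL or recombinant thymic stromal lymphopoietin (TSLP) at 1 µg/mL and sorted by surface FcεRIα and CD49b. FcεRIαhi CD49blo cells were labelled immature and FcεRIαlo CD49bhi cells mature, so that each cytokine had an immature and a mature group of 3 libraries each. Every group shared the genotype and the culture time, the cells came from culture rather than from tissue, and no library was labelled as restimulated. The labels give TSLP in different mass units in different places, and the value above follows the treatment protocol.

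Libraries held 1720065 to 3685285 counts. The 3 ribosomal RNA rows (Rn45s, Rn18s and Rn28s1), whose counts overlap, took 14.7% to 40.1% of a library, with the highest share in TSLP immature replicate 3. Every TSLP immature library, at 35.0% to 40.1%, lay above every library of the other groups, where TSLP mature replicate 3 had the most, at 34.7%. All 6 basophil markers (Mcpt8, Cd200r3, Prss34, Fcer1a, Ms4a2 and Itga2, which encodes CD49b) were present. Their sum was 36949 to 40324 CPM, the unit in which counts are scaled to a common library total, in IL-3 immature libraries. It was 25720 to 28706 CPM in TSLP immature, 8205 to 10329 CPM in IL-3 mature and 6226 to 9415 CPM in TSLP mature libraries. With both cytokines Cd200r3 and Itga2 had the higher mean in mature cells, and the other markers in immature cells. The study describes both subsets as CD200R3+ c-Kit- cells, so Cd200r3, Fcer1a, Itga2 and the mast cell marker Kit are no independent check of identity. TSLP mature replicate 1 stood apart from its group, with neutrophil markers at 495 CPM against 31.3 and 35.3 CPM in replicates 3 and 2 and B lineage markers at 131 CPM against 17.5 and 14.7 CPM, and values of the tested genes and counts of the gene lists without it are given where TSLP mature cells are compared. A fold change or level below is on TMM-scaled CPM, a call is an adjusted p under 0.05, and each comparison shares libraries with others because 4 groups were compared in pairs.

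The sites of the genes are given on GRCm38 from the GENCODE annotation. Il4 (chromosome 11, 53602982 to 53618669) and Il13 (chromosome 11, 53631324 to 53634702) are on the minus strand with a gap of 12.7 kb between them, and Il5 (chromosome 11, 53720794 to 53725106, plus strand) lies 86.1 kb beyond Il13. Csf2 (chromosome 11, 54247271 to 54249667) and Il3 (chromosome 11, 54265303 to 54267277) are both on the minus strand of the same chromosome with 15.6 kb between them. Csf1 (chromosome 3, 107741048 to 107760469, minus strand) and Areg (chromosome 5, 91139599 to 91148432, plus strand) lie elsewhere. No stretch of 50 bases of an Il4, Il13, Csf1, Areg or Il3 transcript occurred in a transcript of another gene, whereas 6.39% of such stretches of Csf2 and 21.6% of those of Il5 were shared with an antisense gene (Gm12223 and Gm12214).

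The promoter windows of the 3 tested genes are shown because those genes carry the differences described below. Each runs from 250 bases before to 50 bases after the annotated start (RefSeq, GRCm38.p6), is printed 5′ to 3′ on the gene's own strand, and has in capitals every match on either strand to AGATAA for GATA factors, to TTCNNNGAA for STAT factors, to GGAAAA for the NFAT core, to TGANTCA for AP-1 and to TATAAA for the TATA box.
Il4 promoter, chr11:53618616-53618915: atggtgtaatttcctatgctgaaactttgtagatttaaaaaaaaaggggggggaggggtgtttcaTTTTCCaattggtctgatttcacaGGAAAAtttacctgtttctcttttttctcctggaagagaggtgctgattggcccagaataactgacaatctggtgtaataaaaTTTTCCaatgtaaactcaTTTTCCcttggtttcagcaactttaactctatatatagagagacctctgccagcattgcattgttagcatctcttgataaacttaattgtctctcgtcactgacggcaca
Il13 promoter, chr11:53634653-53634952: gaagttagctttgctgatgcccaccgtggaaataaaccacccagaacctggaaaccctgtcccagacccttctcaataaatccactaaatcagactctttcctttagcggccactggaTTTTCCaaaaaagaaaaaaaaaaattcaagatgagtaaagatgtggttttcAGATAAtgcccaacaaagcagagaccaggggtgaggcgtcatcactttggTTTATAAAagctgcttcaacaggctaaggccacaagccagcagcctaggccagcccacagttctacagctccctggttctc
Csf1 promoter, chr3:107760420-107760719: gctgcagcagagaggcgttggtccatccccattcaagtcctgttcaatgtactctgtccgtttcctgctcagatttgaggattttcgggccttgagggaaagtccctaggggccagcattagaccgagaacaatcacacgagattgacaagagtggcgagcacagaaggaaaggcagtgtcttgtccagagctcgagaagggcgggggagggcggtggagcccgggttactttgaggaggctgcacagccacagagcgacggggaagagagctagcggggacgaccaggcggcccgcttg

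The Il4 window held 4 matches to the NFAT core, first bases at -185, -161, -78 and -60 from the start, where 23.4% of all 32851 promoter windows held at least 1 and 0.0578% held at least 4. The Il13 window held 1 GATA match at -81, which 11.2% of windows also had, 1 NFAT core match at -132, and overlapping TATA box matches at -31 and -29 on opposite strands, where 13.6% of windows held at least 1 such match. The Csf1 window held none of these letters, and no window of the 8 genes held the STAT letters, found in 8.30% of all windows. The AP-1 letters were in 7.81% of all windows and, among the 8 genes, in that of Il9. These matches describe the windows and say nothing about binding.

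Csf1 was the best covered of the genes, with 115 to 1885 counts in a library. In IL-3 mature cells it was at 668, 671 and 686 CPM (replicates 1, 2 and 3), and in IL-3 immature cells at 55.6, 67.1 and 79.5 CPM. TSLP mature cells had 406, 479.7 and 538 CPM, and TSLP immature cells had 139, 138 and 156 CPM. No library of any group overlapped with another group, and the order of the levels from the lowest was IL-3 immature, TSLP immature, TSLP mature and IL-3 mature.

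**Figure D1:**
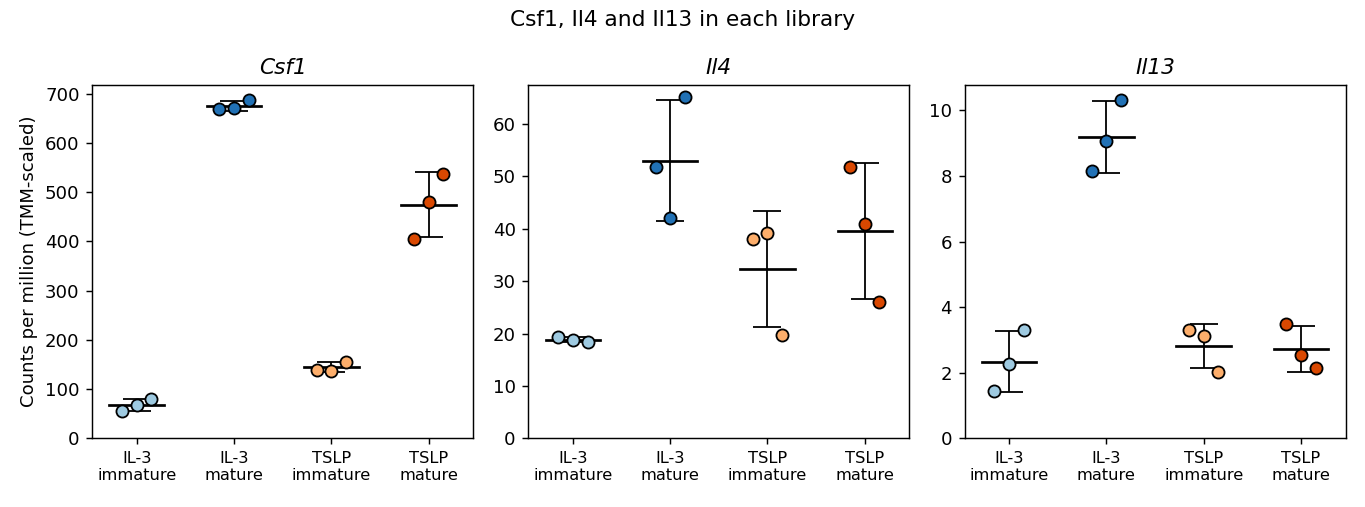
TMM-scaled CPM (vertical axes, from 0) of Csf1, Il4 and Il13 in the 12 libraries, with a point per library in replicate order, the group mean as a bar and the SD as an error bar (n = 3). Csf1 sits in 4 separate bands, the Il4 values of both TSLP groups overlap, and Il13 is above 8 CPM in IL-3 mature libraries alone.

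In IL-3 cultures all 3 tested genes were lower in immature than in mature cells, beside 46.2% of the 10861 tested genes called in either direction. Csf1 was 9.99-fold lower in immature cells (95% interval 7.52 to 13.3; log2 difference -3.32 ± 0.193 SE; adjusted p = 2.04e-09, edgeR quasi-likelihood test with Benjamini-Hochberg adjustment). By the size of the log2 difference Csf1 ranked 466, Il13 ranked 1353 and Il4 ranked 2020 of the 10861 genes. In these bulk libraries, fewer cells that make a transcript and less of it per cell cannot be told apart.

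Il4, the signature type 2 cytokine of basophils, was at 51.8, 42.1 and 65.1 CPM in IL-3 mature cells and at 19.3, 18.8 and 18.5 CPM in IL-3 immature cells. The 3 immature libraries lay close together and all below the mature ones. The difference was 2.80-fold (95% interval 1.84 to 4.27; log2 difference -1.49 ± 0.287 SE; adjusted p = 0.000507, edgeR quasi-likelihood test).

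Il13, whose product shares a receptor chain with IL-4, was at 8.15, 9.07 and 10.3 CPM in IL-3 mature cells and at 1.45, 2.28 and 3.30 CPM in IL-3 immature cells. These values rest on 23, 25 and 23 counts in the mature libraries and on 3, 8 and 10 counts in the immature libraries, which did not overlap. The difference was 3.75-fold (95% interval 2.17 to 6.48; log2 difference -1.91 ± 0.373 SE; adjusted p = 0.000567, edgeR quasi-likelihood test).

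In TSLP cultures 1 of the 3 genes, Csf1, was called between the stages, beside 25.2% of all tested genes. Csf1 was 3.29-fold lower in TSLP immature than in TSLP mature cells (95% interval 2.52 to 4.28; log2 difference -1.72 ± 0.180 SE; adjusted p = 3.72e-06, edgeR quasi-likelihood test), with a log2 difference of -1.72 also without TSLP mature replicate 1. Il4 was at 51.9, 41.0 and 26.0 CPM in TSLP mature cells and at 38.0, 39.3 and 19.7 CPM in TSLP immature cells. These groups overlapped, and replicate 3 was the lowest library of each. The log2 difference of Il4 was -0.30 with a 95% interval from -0.87 to 0.28 (adjusted p = 0.464, edgeR quasi-likelihood test). Without TSLP mature replicate 1 it was 0.04.

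Il13 was at 3.49, 2.54 and 2.14 CPM in TSLP mature cells and at 3.29, 3.11 and 2.03 CPM in TSLP immature cells. The groups overlapped, on 6 to 13 counts a library. The log2 difference was 0.04 with a 95% interval from -0.81 to 0.89 (adjusted p = 0.963, edgeR quasi-likelihood test), which reaches a 1.85-fold increase. Without TSLP mature replicate 1 it was 0.35 (adjusted p = 0.608, edgeR quasi-likelihood test).

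The difference between the stages was itself compared between the cultures with an interaction term, which called 1 of the 3 genes, Csf1, beside 4.18% of all tested genes. The immature-minus-mature log2 difference of Csf1 was 1.60 ± 0.252 SE smaller in size in TSLP than in IL-3 cultures (adjusted p = 0.00203, edgeR quasi-likelihood test). For Il13 the interaction was 1.94 with a 95% interval from 0.77 to 3.12 (adjusted p = 0.0595), and for Il4 it was 1.19 with an interval from 0.35 to 2.03 (adjusted p = 0.107, edgeR quasi-likelihood test for both). Neither passed the threshold in this fit, whereas Il4 did when no filter on low counts was used (adjusted p = 0.0247, edgeR quasi-likelihood test). Without TSLP mature replicate 1 all 3 genes passed, beside 6.56% of all tested genes. The adjusted p was then 0.0288 for Il4 and 0.0360 for Il13 (edgeR quasi-likelihood test).

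**Figure D2:**
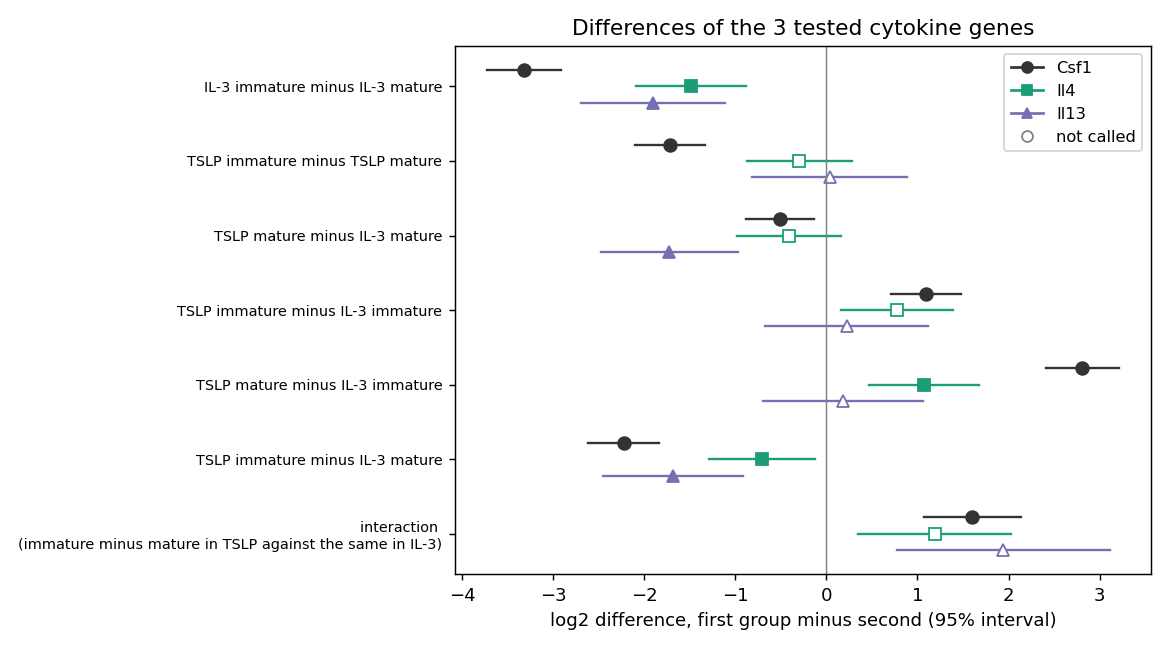
log2 differences of Csf1, Il4 and Il13 (horizontal axis; points with 95% intervals as lines) for the 6 pairs of groups and the interaction (rows); filled points passed an adjusted p of 0.05 and open points did not. Csf1 is filled in every row, from -3.32 for IL-3 immature minus IL-3 mature to 2.81 for TSLP mature minus IL-3 immature.

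Between the cytokines in mature cells, 2 of the 3 genes were called, both lower with TSLP, beside 24.3% of all tested genes. Il13 was 3.30-fold lower in TSLP mature than in IL-3 mature cells (95% interval 1.96 to 5.55; log2 difference -1.72 ± 0.354 SE; adjusted p = 0.00328, edgeR quasi-likelihood test), with every TSLP library under every IL-3 library. Csf1 was 1.42-fold lower (95% interval 1.10 to 1.84; adjusted p = 0.0441, edgeR quasi-likelihood test). That call of Csf1 was at the edge and was lost in 7 of 22 alternatives, among them the removal of any 1 IL-3 mature library or of TSLP mature replicate 2, with adjusted p up to 0.142. Il4 gave a log2 difference of -0.41 with a 95% interval from -0.98 to 0.16 (adjusted p = 0.281, edgeR quasi-likelihood test), and its groups overlapped. Without TSLP mature replicate 1 the log2 differences were -2.02 for Il13, -0.49 for Csf1 and -0.73 for Il4 (adjusted p = 0.00183, 0.0363 and 0.0556, edgeR quasi-likelihood test).

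Between the cytokines in immature cells, 1 of the 3 genes, Csf1, was called, beside 13.3% of all tested genes, and it was 2.14-fold higher with TSLP (95% interval 1.64 to 2.79; log2 difference 1.09 ± 0.182 SE; adjusted p = 0.00113, edgeR quasi-likelihood test). The 3 ribosomal rows took 35.0% to 40.1% of TSLP immature and 14.7% to 25.0% of IL-3 immature libraries, which did not overlap, and B lineage markers summed to 26.1 to 31.5 CPM and 5.97 to 6.92 CPM there. With those ribosomal rows left out the log2 difference of Csf1 was 1.06 (adjusted p = 0.00144, edgeR quasi-likelihood test), and the part of the B lineage signal was not tested. The direction was opposite to that in mature cells, and the interaction given above is the test of that contrast. Il4 was 1.71-fold higher with TSLP (95% interval 1.12 to 2.62; adjusted p = 0.0882, edgeR quasi-likelihood test). The Il4 groups did not overlap, although TSLP immature replicate 3 at 19.7 CPM was close to the highest IL-3 immature library at 19.3 CPM, and without that replicate the adjusted p was 0.0454. For Il13 the log2 difference was 0.22 with a 95% interval from -0.67 to 1.12 (adjusted p = 0.787, edgeR quasi-likelihood test).

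The remaining pairs, which cross stage and cytokine, completed the order of the levels. TSLP mature against IL-3 immature cells called 2 of the 3 genes, beside 50.6% of all tested genes, with Csf1 7.02-fold higher and Il4 2.11-fold higher (adjusted p = 9.91e-09 and 0.00510, edgeR quasi-likelihood test). Without TSLP mature replicate 1 that call of Il4 was at the edge, at 0.71 on the log2 scale (adjusted p = 0.0491, edgeR quasi-likelihood test), and Csf1 was at 2.78. TSLP immature against IL-3 mature cells called all 3 genes as lower, beside 40.2% of all tested genes, and the call of Il4 in that pair (adjusted p = 0.0490, edgeR quasi-likelihood test) was lost in 17 of 22 alternatives. For Il4 no neighbours in the order IL-3 immature, TSLP immature, TSLP mature, IL-3 mature passed the test. For Il13 the IL-3 mature group stood above the other 3, among which no pair passed the test.

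Scaled to the longest annotated coding transcript, the levels of Csf1 and Il4 came closer together. In IL-3 mature cells Csf1 was at 162 ± 2.33 CPM per kb (SD, n = 3; 4176 bases), Il4 at 87.6 ± 19.1 CPM per kb (605 bases) and Il13 at 7.62 ± 0.906 CPM per kb (1205 bases). In IL-3 immature cells, by contrast, Il4 at 31.2 ± 0.721 CPM per kb was above Csf1 at 16.1 ± 2.86 CPM per kb. The TSLP groups had Il4 above Csf1 in immature cells (53.4 ± 18.2 against 34.6 ± 2.42 CPM per kb) and Csf1 above Il4 in mature cells (114 ± 15.8 against 65.5 ± 21.4 CPM per kb). These orders between genes were not tested, and any uneven coverage along transcripts would move them.

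Csf2 had 1, 0 and 3 counts in IL-3 mature libraries and 1 count in each TSLP mature library. All 6 immature libraries had 0 counts, so the 7 counts of this gene were all in mature cells. In a fit without the filter on low counts, the adjusted p was 0.204 between the stages with IL-3 and 0.461 with TSLP (edgeR quasi-likelihood test), and at this depth a difference was not detectable. Areg had 0, 1 and 2 counts in IL-3 mature, 0, 0 and 1 in IL-3 immature, 1, 0 and 3 in TSLP mature and 0, 1 and 1 in TSLP immature libraries. The groups overlapped, and no comparison without the filter gave an adjusted p under 0.599 for Areg.

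Il5 and Il3 had 0 counts in all 12 libraries. A count of 0 over the 3 libraries of a group allows up to 3 counts, or 0.285 CPM (TSLP mature), 0.339 CPM (TSLP immature), 0.348 CPM (IL-3 immature) and 0.384 CPM (IL-3 mature), for counting error only. Il4, on the same chromosome, was at 18.9 ± 0.436 CPM (SD, n = 3) in the group where it was lowest.

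Of 14 listed neighbours of these genes on chromosome 11, 8 were tested. With IL-3, 2 were higher and 1 lower in immature cells (median log2 difference -0.11, against -0.06 over all tested genes, of which 46.2% were called), and with TSLP 3 were higher and 0 lower (median -0.07, against -0.03 and 25.2%). The TSLP counts were also 3 and 0 without TSLP mature replicate 1, beside 31.4% of all tested genes called. Rad50, a DNA repair gene that lies between Il13 and Il5, was at 19.8 ± 2.74 CPM in IL-3 mature and 48.7 ± 10.8 CPM in IL-3 immature cells (SD, n = 3), the opposite direction to Il4 and Il13. It was 2.44-fold higher in immature cells with IL-3 and 2.26-fold higher with TSLP (adjusted p = 0.000242 and 0.00177, edgeR quasi-likelihood test). Slc22a4, a carnitine family transporter, was the neighbour that was lower in IL-3 immature cells, by 1.74-fold (adjusted p = 0.00465, edgeR quasi-likelihood test). Irf1, an interferon regulatory factor, was higher with TSLP at both stages, by 1.82-fold in mature and 1.95-fold in immature cells (adjusted p = 0.00985 and 0.0110, edgeR quasi-likelihood test). The interaction called 0 of the 8, beside 4.18% of all tested genes.

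**Figure D3:**
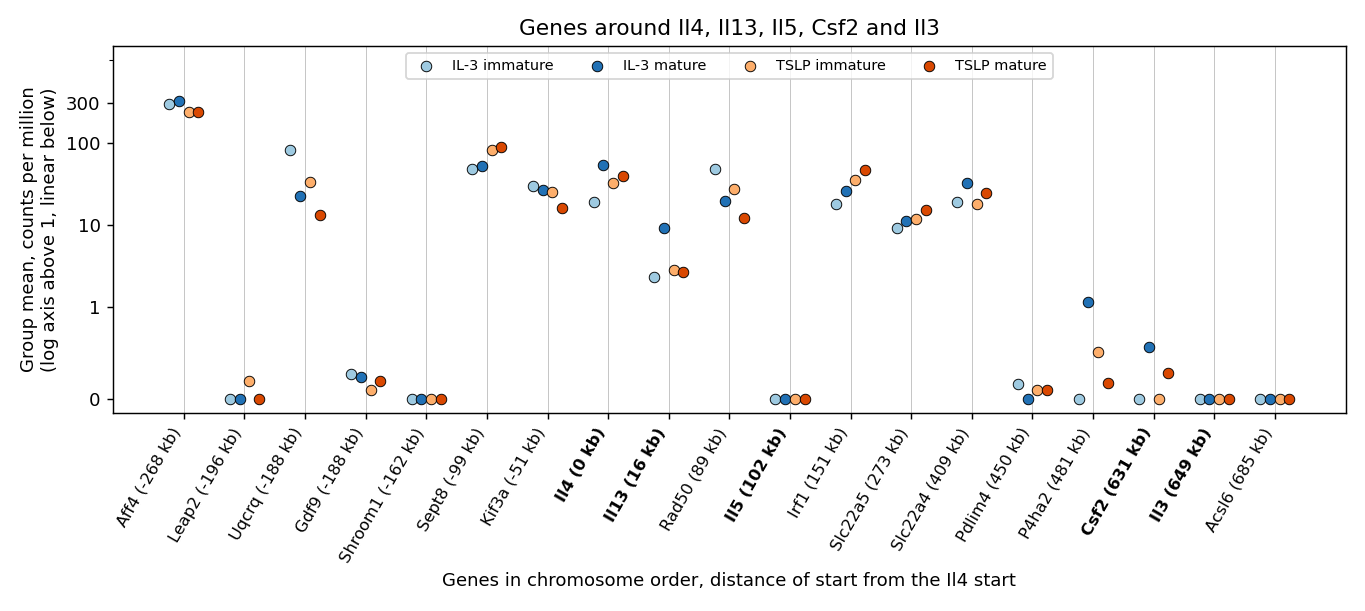
Group means in CPM (vertical axis, logarithmic above 1 and linear below; n = 3) of 5 of the cytokine genes (bold) and their 14 neighbours in chromosome order, with the distance of each start from the Il4 start. Il4 and Il13 are highest in IL-3 mature cells, Rad50 is highest in IL-3 immature cells, and Il5 and Il3 are at 0 in every group.

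Among 12 receptor genes of these cytokines, 8 were tested. With IL-3, 6 were lower in immature cells and 0 higher (median log2 difference -1.36, against -0.06 over all tested genes, of which 46.2% were called), and with TSLP 5 were lower and 0 higher (median -0.82, against -0.03 and 25.2%). The latter, with TSLP mature replicate 1 left out, were 4 and 0 (median -0.58, against 0.05 over all tested genes and 31.4% called). Il4ra, the chain that binds IL-4 and serves IL-13 as well, was at 27.1 ± 1.03 CPM in TSLP mature, 14.98 ± 4.595 in TSLP immature, 17.0 ± 1.21 in IL-3 mature and 2.81 ± 1.01 CPM in IL-3 immature cells (SD, n = 3). IL-3 immature cells were lowest, 6.02-fold under IL-3 mature cells (adjusted p = 5.52e-06, edgeR quasi-likelihood test). Il4ra was the 1 receptor gene of the 8 called by the interaction, beside 4.18% of all tested genes, at 1.73 ± 0.400 SE (adjusted p = 0.0222, edgeR quasi-likelihood test). Without TSLP mature replicate 1 the interaction called 2 of the 8, beside 6.56% of all tested genes. Csf2rb, the common beta chain through which IL-3, GM-CSF and IL-5 signal, fell in immature cells by 1.76 with IL-3 and by 1.23 with TSLP on the log2 scale (adjusted p = 2.43e-06 and 0.000231, edgeR quasi-likelihood test). Reads of Csf2rb and of its near-identical copy Csf2rb2 may be shared between their rows, so the values of each are uncertain. Il3ra, the IL-3 binding chain, was called between the cytokines at both stages and between the stages with neither cytokine, and it was 2.68-fold lower with TSLP in mature and 2.73-fold lower in immature cells (adjusted p = 0.00117 and 0.00127, edgeR quasi-likelihood test). The 4 receptor genes that did not pass the filter were Il13ra1, Il13ra2, Il9r and Egfr.

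Csf1r, the receptor of the Csf1 product and a gene of macrophages, was at 29.0 ± 11.3 CPM in TSLP mature, 7.79 ± 0.583 in TSLP immature, 16.9 ± 5.40 in IL-3 mature and 6.29 ± 1.67 CPM in IL-3 immature cells (SD, n = 3). It was lower in immature cells by 2.68-fold with IL-3 and 3.72-fold with TSLP (adjusted p = 0.00315 and 0.000379, edgeR quasi-likelihood test). Without TSLP mature replicate 1 its log2 differences were closer together, at -1.38 with IL-3 and -1.49 with TSLP. The sum of the 7 listed monocyte and macrophage markers was higher in mature than in immature libraries with both cytokines. It was 344 to 579.5 CPM in TSLP mature and 86.8 to 115 CPM in TSLP immature libraries. With IL-3 it was 222 to 306 CPM in mature and 15.5 to 39.6 CPM in immature libraries. Adgre1 (means of 93.4 and 4.02 CPM in IL-3 mature and immature cells) and Ly6c2 (140 and 8.04 CPM) carried the latter order. C1qa had the lower mean in IL-3 mature cells (1.94 against 3.73 CPM). Of the 6 markers of this list tested, 4 were lower and 0 higher in immature cells with IL-3, beside 46.2% of all tested genes called. With TSLP 5 were lower and 0 higher, beside 25.2%, and the counts were the same without TSLP mature replicate 1, beside 31.4%. At most 2 of the 7 were at 0 in any library. The sum of the 7 was higher in TSLP mature than in IL-3 mature libraries. The 5 eosinophil markers summed to 62.0 to 86.9 CPM in IL-3 mature and 60.2 to 80.1 CPM in TSLP mature libraries, above 28.4 to 38.2 CPM and 15.95 to 33.2 CPM in the respective immature libraries. With IL-3, Ccr3 (means of 51.0 CPM in mature and 4.44 CPM in immature cells) and Siglecf (20.3 against 4.68 CPM) carried that order. Prg2 (3.23 against 23.5 CPM), Prg3 (0.118 against 2.01 CPM) and Epx (0 against 0.300 CPM) had the lower mean in IL-3 mature cells. The 7 neutrophil markers summed to 188 to 274 CPM in IL-3 mature and 127 to 151 CPM in IL-3 immature libraries, and to 31.3 to 495 CPM in TSLP mature and 108 to 143 CPM in TSLP immature libraries. With IL-3, Lcn2 (means of 23.5 CPM in mature and 107 CPM in immature cells) and Elane (0.481 against 1.80 CPM) went the other way. Retnlg, S100a8, Ngp, Ltf and Camp had the higher mean in IL-3 mature cells. The part of monocytes, macrophages, eosinophils and neutrophils in the levels of Csf1, Il4 and Il13 was not tested. The 6 mast cell markers summed to 0 to 8.86 CPM, with 2 to 6 of them at 0 in each library, and the 7 T cell and innate lymphoid markers to 9.19 to 22.6 CPM. The latter sum ran from 9.88 to 14.9 CPM in IL-3 mature and from 15.6 to 19.3 CPM in IL-3 immature libraries, and the ranges of the TSLP groups overlapped. Thy1 carried that order, at a mean of 6.06 CPM in mature and 14.2 CPM in immature cells with IL-3, whereas Cd3d (1.14 against 0.446 CPM), Cd8a (0.775 against 0.527 CPM) and Il2ra (3.67 against 1.93 CPM) had the higher mean in mature cells. The part of T cells and innate lymphoid cells in Il4 and Il13 was not tested.

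Of 20 transcription factor genes tied to type 2 cytokine genes, 17 were tested. With IL-3, 9 were lower in immature cells and 0 higher (median log2 difference -0.67, against -0.06 over all tested genes, of which 46.2% were called), and with TSLP 8 were lower and 0 higher (median -0.55, against -0.03 and 25.2%). The latter, with TSLP mature replicate 1 left out, were 7 and 1 (median -0.35, against 0.05 over all tested genes and 31.4% called). Bhlhe40, a repressor needed for GM-CSF and other cytokines in T cells, was at 156 ± 3.74 CPM in TSLP mature, 67.0 ± 3.31 in TSLP immature, 98.7 ± 5.55 in IL-3 mature and 10.6 ± 1.68 CPM in IL-3 immature cells (SD, n = 3). It was 9.21-fold lower in immature cells with IL-3 and 2.33-fold lower with TSLP (adjusted p = 1.64e-09 and 2.53e-05), and its interaction was 1.98 ± 0.234 SE (adjusted p = 0.000177, edgeR quasi-likelihood test for all). Nfil3, a basic leucine zipper factor induced by IL-3, was the other factor called by the interaction, beside 4.18% of all tested genes, at 1.23 ± 0.263 SE (adjusted p = 0.0132, edgeR quasi-likelihood test). Stat6, which carries the IL-4 signal, was 2.57-fold lower in immature cells with IL-3 and 1.94-fold lower with TSLP (adjusted p = 7.98e-06 and 0.000572, edgeR quasi-likelihood test).

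Gata2, a GATA factor of the basophil lineage, was at 1133 ± 91.3 CPM in IL-3 mature and 682 ± 148 CPM in IL-3 immature cells (SD, n = 3) and was lower in immature cells by 0.73 on the log2 scale (adjusted p = 0.00338, edgeR quasi-likelihood test). With TSLP it was at 1169 ± 37.0 CPM in mature and 874 ± 31.6 CPM in immature cells. Without TSLP mature replicate 1 its log2 difference with TSLP was -0.35 (adjusted p = 0.140, edgeR quasi-likelihood test). Gata1, another GATA factor, gave log2 differences of -0.16 with IL-3 and -0.22 with TSLP, neither called, and Gata3, the factor of T cells, had 6 to 14 counts in a group and was not tested.

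Among 23 other cytokine and growth factor genes, 11 were tested and 7 had 0 counts in all libraries. With IL-3, 10 of the 11 were lower in immature cells and 0 higher (median log2 difference -1.61, against -0.06 over all tested genes, of which 46.2% were called), and with TSLP 5 were lower and 0 higher (median -0.58, against -0.03 and 25.2%). The latter, with TSLP mature replicate 1 left out, were 4 and 0 (median -0.49, against 0.05 over all tested genes and 31.4% called). In immature cells, 8 of the 11 were higher with TSLP and 0 lower (median 1.38, against 0.04 over all tested genes, of which 13.3% were called). The interaction called 4 of them with and without TSLP mature replicate 1, beside 4.18% and 6.56% of all tested genes, respectively. Osm, an IL-6 family cytokine, had an interaction of 1.75 ± 0.275 SE (adjusted p = 0.00203, edgeR quasi-likelihood test), and was 8.28-fold lower in immature cells with IL-3 and 2.45-fold lower with TSLP. Il6 and Lif, of the same family, and Hgf, a growth factor of epithelia, were the other 3, with interactions of 1.52, 4.09 and 1.27. Tgfb1 was the 1 tested gene not called between the stages with IL-3, at -0.02 ± 0.230 SE on the log2 scale.

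**Figure D4:**
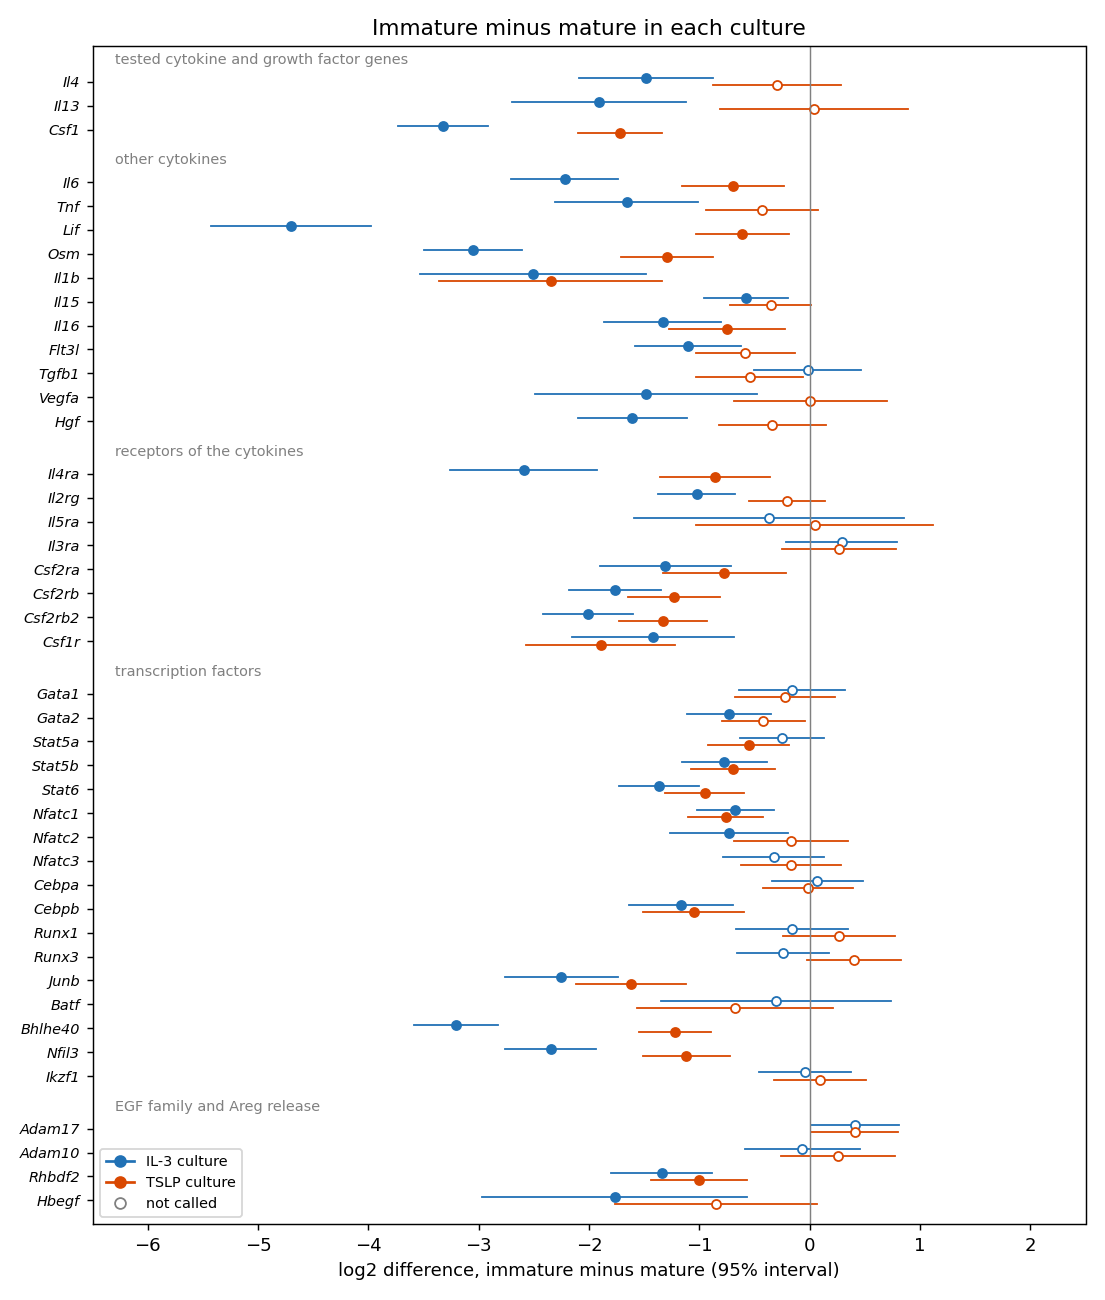
log2 differences, immature minus mature (horizontal axis; points with 95% intervals), in IL-3 cultures (blue) and TSLP cultures (orange) for the tested genes of each list (rows); filled points passed an adjusted p of 0.05. In IL-3 cultures Csf1, at -3.32, lies left of Il13 and Il4, and in TSLP cultures Il4 and Il13 are open points near 0.

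Amphiregulin is shed from the cell surface by proteases. Of 10 EGF family and release genes, 4 were tested, of which 2 were lower in immature cells with IL-3 and 1 with TSLP, beside 46.2% and 25.2% of all tested genes called (median log2 differences -0.70 and -0.30, against -0.06 and -0.03). The TSLP count was also 1 without TSLP mature replicate 1, beside 31.4% of all tested genes called. Rhbdf2, which carries the shedding protease Adam17 to the surface, was 2.53-fold lower in immature cells with IL-3 and 2.01-fold lower with TSLP (adjusted p = 0.000101 and 0.00185, edgeR quasi-likelihood test). Hbegf, another EGF receptor ligand, was at 3.74 ± 0.801 CPM in IL-3 mature and 1.16 ± 0.698 CPM in IL-3 immature cells (SD, n = 3), 3.41-fold lower in immature cells (adjusted p = 0.0177, edgeR quasi-likelihood test). Adam17 and Adam10 were not called in either culture.

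The profiles of the 3 genes over the 12 libraries were also compared with each other and with all tested genes at a mean of at least 10 CPM, as a description, since libraries of a group share their condition. Il4 and Csf1 had a Pearson correlation of log2 CPM of 0.781, Il4 and Il13 of 0.747, and Il13 and Csf1 of 0.678. The genes most like Csf1 were Lypd6b (r = 0.991), Mcl1 (r = 0.991) and Cd44 (r = 0.990). Those most like Il4 were Pim1 (r = 0.931), Bsdc1 (r = 0.922) and Mpc2 (r = 0.915), and those most like Il13 were Hist2h2aa1 (r = 0.958; a histone gene with a near-identical copy, so uncertain), Gm14005 (r = 0.942) and S100a6 (r = 0.930). S100a6, a calcium-binding protein gene, was at 2586 CPM in IL-3 mature cells and between 104 and 286 CPM in the other groups on average. The ratio of Il4 to Il13 counts was 4.64 to 6.35 in IL-3 mature, 5.60 to 13.3 in IL-3 immature, 9.67 to 12.6 in TSLP immature and 12.1 to 16.1 in TSLP mature libraries, on as few as 3 Il13 counts.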

How the data were processed

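Bulk RNA sequencing of 12 sorted libraries was analysed. Read counts per gene were deposited by the authors as 1 table. According to the methods, Ion Proton reads were trimmed with Cutadapt, mapped by Bowtie2 to GRCm38 reference transcripts and counted per gene, whereas the submitters' processing notes name GRCm39 and mm10. Libraries were made from poly(A) RNA captured on oligo(dT) beads and amplified by PCR. For molecular identifiers, strand setting and reads that match several genes, the handling is not given in the sources used here. The near equality of Rn45s with Rn18s plus Rn28s1 (ratio 0.982 to 0.999) shows that rows can hold overlapping counts. PCR copies are not independent molecules, so limits from counts cover counting error only.

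The members and gene lists were chosen with earlier results of these data known. Lists named in the report were the receptors, transcription factors, chromosome neighbours, other cytokines, EGF family genes and markers, and likeness was ranked by Pearson correlation of log2 CPM (prior count 2, top 3 genes). Genes were filtered with filterByExpr (minimum count 10, minimum total 15), normalized by TMM and tested by the quasi-likelihood test of edgeR 4.0.16 in R 4.3.3 with 1 mean per group and Benjamini-Hochberg adjustment over all 10861 genes. Intervals are at 95%. The study used TCC, which was not used here. One row without a symbol, holding 50% of each column (a total), was left out. The study describes separate cultures as replicates, which the labels do not state, and otherwise p-values would measure only the spread between these samples, which may be technical. Promoters came from RefSeq (GRCm38.p6) and transcripts from GENCODE.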

Additional observations from a re-analysis of the deposited data

Results flagged for a closer look

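Csf1 was singled out because its difference between the stages was not the same with both cytokines by the interaction test. The immature-minus-mature log2 difference was -3.32 with IL-3 and -1.72 with TSLP, and the interaction was 1.60 (adjusted p = 0.00203, edgeR quasi-likelihood test with Benjamini-Hochberg adjustment). The interaction passed the threshold under all 21 alternatives fitted, with values from 1.53 to 1.77. The sum of the monocyte and macrophage markers also differed between the stages, and the part of such cells in the result was not tested.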

How the results depend on the processing

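Of 21 pairs of a tested gene and a comparison, 13 were called with all libraries, and 11 of these calls were kept in every one of up to 22 alternatives (21 planned and 1, without Rn45s, Rn18s and Rn28s1, chosen after seeing the data). The calls of Csf1 in TSLP mature against IL-3 mature cells and of Il4 in TSLP immature against IL-3 mature cells were lost in some. The members called in TSLP mature against IL-3 mature cells were 1 instead of 2 with no low count filter, with a minimum of 10 CPM in 3 libraries, with counts thinned to 1720065 and with only the 2 groups compared (where 1722 instead of 2634 genes were called). With no filter, 2 instead of 1 were called in TSLP immature against IL-3 immature cells and 2 instead of 1 by the interaction. At 10 CPM, Il13 was not tested and 1 instead of 3 was called in TSLP immature against IL-3 mature cells. Leaving out 1 library at a time gave 1 to 2 members between the mature groups, 1 to 2 between the immature groups and 1 to 3 for the interaction.

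In the same runs the genes called ranged from 1773 (without TSLP immature replicate 1) to 3456 for the stages with TSLP, 1657 (without IL-3 mature replicate 2) to 2968 between mature groups, 588 (without TSLP immature replicate 3) to 2243 (without TSLP mature replicate 1) between immature groups and 240 (without IL-3 mature replicate 2) to 723 (without TSLP mature replicate 1) for the interaction. Log2 differences near 0 changed sign in these runs, with Il4 from -0.462 to 0.0495 and Il13 from -0.0462 to 0.353 for the stages with TSLP, and Il13 from -0.168 to 0.386 for TSLP mature minus IL-3 immature. The causes were not tested. Replicate numbers were not taken as pairs in the main fit, because the labels do not state a pairing. To compare the numbers, the group mean of each gene was subtracted from log2 CPM, and libraries of different groups were correlated on what remained. Same-numbered pairs of libraries were over 0.1 more often than pairs with other numbers (7 of 18, median 0.0786, against 2 of 36, median -0.0456). Whether same-numbered libraries came from 1 culture was not tested. A replicate block raised the genes called in all 7 comparisons and gave 3, 1, 2, 1, 2, 3 and 1 members called, with 5248, 3067, 2850, 1893, 5681, 4655 and 557 genes called. Scalings moved the median log2 difference of all genes by up to 0.121, for TSLP mature minus IL-3 immature without Rn45s. Without the 3 ribosomal rows 40.6% instead of 51.1% of the genes called between mature groups were higher with TSLP. In the same setting 55.5% instead of 48.6% of the genes called for the stages with TSLP were higher in immature cells. Depth limits Il13, Areg, Csf2, Il5 and Il3.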
